A study of Mus musculus with 6 samples.

Results

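Mouse embryonic stem cells (ESCs) kept in R2i were compared with the same cells kept in serum, across every mature microRNA (miRNA) of the small RNA-seq count table. The comparison rested on 4 libraries, 1 for each of the lines RB18 and RB20 in each medium, and each library was made from a pool of 3 cultures. The table listed 1907 mature miRNAs, of which 1233 had at least 1 count in the 6 libraries of the series and 571 passed the filter on low counts and were tested. Both lines came from C57BL/6 mice, were established in R2i without feeder cells on gelatin, and were moved from R2i to serum or to 2i for at least 10 passages. All media contained LIF at 1000 U/ml. The serum medium held 15% fetal bovine serum. R2i is serum-free and held 1 µM PD0325901, which inhibits MEK, with 10 µM SB431542, which inhibits the TGF-β receptor. The third medium of the series, 2i, held the same dose of PD0325901 with 3 µM CHIR99021, which inhibits GSK3. R2i and serum therefore differed both in the inhibitors and in the presence of serum, and the effects of these cannot be told apart. Because the cells of serum had left R2i and the cells of R2i had not, time away from R2i cannot be told apart from the medium either.

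ESCs in serum are a mixed population, in which cells move in and out of a state primed for differentiation, whereas inhibitors of the MEK pathway hold them closer to the naive state of the early embryo. miRNAs are short RNAs that are cut from a hairpin precursor, usually as a 5p and a 3p strand, and that silence mRNAs by pairing mainly through the seed, bases 2 to 8 of the mature strand. Many are made from clusters, in which several hairpins are cut from a single transcript. ESCs are known for the miR-290-295 and miR-17-92 clusters, which promote the cell cycle, and for miR-302/miR-367, which is known from primed pluripotent cells. The imprinted Dlk1-Dio3 locus carries a very large miRNA cluster that is transcribed from the maternal chromosome together with the long noncoding RNAs Meg3, Rian and Mirg, and its silencing in pluripotent cells is known to go with poor developmental potential. Sfmbt2, another imprinted gene, carries in an intron a large repeated cluster of miR-466, miR-467 and miR-669 hairpins that is found in rodents.

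The mature sequences of miRNAs on which the results turn are shown first, as given by RefSeq for the mouse assembly GRCm38.p6, in the 5′ to 3′ direction, with the seed (bases 2 to 8) in capitals. The first set holds miRNAs of the Dlk1-Dio3 locus that were higher in R2i, including miR-379-3p and miR-411-3p, which share a seed.
miR-127-3p: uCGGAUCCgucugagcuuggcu
miR-541-5p: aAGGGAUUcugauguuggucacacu
miR-381-3p: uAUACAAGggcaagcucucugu
miR-410-3p: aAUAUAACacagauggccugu
miR-409-3p: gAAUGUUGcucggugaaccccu
miR-431-3p: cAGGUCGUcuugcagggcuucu
miR-666-5p: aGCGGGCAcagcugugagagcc
miR-379-3p: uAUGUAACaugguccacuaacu
miR-411-3p: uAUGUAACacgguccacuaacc
The second set shows that miRNAs of the miR-302/miR-367 cluster, which were higher in R2i, carry the seeds of abundant ESC miRNAs from other clusters that were not called.
miR-302b-3p: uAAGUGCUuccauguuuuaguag
miR-302d-3p: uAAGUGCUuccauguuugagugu
miR-295-3p: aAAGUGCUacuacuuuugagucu
miR-294-3p: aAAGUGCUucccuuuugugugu
miR-367-3p: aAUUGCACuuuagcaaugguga
miR-92a-3p: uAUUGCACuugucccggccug
The third set holds miRNAs that were lower in R2i, beside relatives with the same seed from another gene that were not.
miR-21a-5p: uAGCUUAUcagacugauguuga
miR-22-3p: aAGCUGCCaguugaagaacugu
miR-181c-5p: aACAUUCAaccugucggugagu
miR-181d-5p: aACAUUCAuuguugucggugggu
miR-27a-3p: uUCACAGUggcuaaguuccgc
miR-27b-3p: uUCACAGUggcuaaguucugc
miR-10a-5p: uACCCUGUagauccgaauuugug
miR-10b-5p: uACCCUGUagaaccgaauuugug
miR-203-3p: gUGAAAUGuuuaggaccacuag
The last is miR-211-5p, which separated R2i from 2i and not from serum.
miR-211-5p: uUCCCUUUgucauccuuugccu

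The counts assigned to miRNAs summed to 1744187 and 2243369 in the serum libraries of RB18 and RB20 and to 1041858 and 3593356 in their R2i libraries. A count of 3, taken here as the smallest level that could be told from 0, corresponded to between 0.858 and 2.57 counts per 1000000 counts (CPM) among these 4 libraries, and such limits cover counting error only. The identity of the cells was checked by the ESC-specific miR-290-295 cluster, which held 43.5% and 33.5% of all counts in serum and 42.8% and 40.9% in R2i. Levels are given below as CPM scaled by edgeR's trimmed mean of M-values, always in the order RB18 and then RB20. Differences are log2 fold changes of R2i over serum from edgeR's quasi-likelihood test, with their standard error (SE) and a Benjamini-Hochberg adjusted p over the 571 miRNAs tested. A miRNA was called when its adjusted p was under 0.01 and its change was more than 2-fold. With 2 libraries a medium, p-values measure the spread between 2 lines. That spread was estimated from all 6 libraries, those of 2i included. A permutation test of a single miRNA could not go below 0.33.

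In total 86 miRNAs (15.1% of those tested) were higher in R2i and 89 (15.6%) were lower, so that 30.6% were called. Of the 86 higher miRNAs, 66, or 76.7%, lie in the Dlk1-Dio3 locus on chromosome 12. This share depended on the filter, since with at least 10 counts in every library 28 of 56 lay in the locus and 28 outside. Among the lower group, 43 of the 89, or 48.3%, lie in Sfmbt2 on chromosome 2. Every called miRNA moved in the same direction in RB18 and in RB20, and 82 of the higher and 87 of the lower ones moved by more than 2-fold in both lines. The calls were made on these same libraries. A miRNA whose lines disagreed could hardly have been called, so this agreement is no separate evidence. The median log2 change was 3.84 among the higher and -2.22 among the lower miRNAs, against -0.07 over all miRNAs tested. Scaling by library totals shifted that median to 0.033. A separation of the libraries was by itself common, as 403 of the 571 miRNAs (70.6%) had no overlap between the R2i and the serum libraries. Without the R2i library of RB18 the calls were 70 higher and 59 lower, and without that of RB20 they were 74 and 53.

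The calls lay outside the 10 most abundant miRNAs. The 5 most abundant miRNAs took 45.9% and 48.3% of the counts in serum and 45.8% and 46.4% in R2i, and none of them was called, nor were any of the first 10. Of the first 20, 2 were called and both were lower. The called higher miRNAs together rose from 0.592% and 0.848% of the counts in serum to 7.01% and 5.00% in R2i, and the called lower ones fell from 9.35% and 8.20% to 2.26% and 2.30%. The plot of fold change against abundance shows the higher miRNAs of Dlk1-Dio3 and the lower ones of Sfmbt2 as separate bands at low to middle levels.

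**Figure D1:**
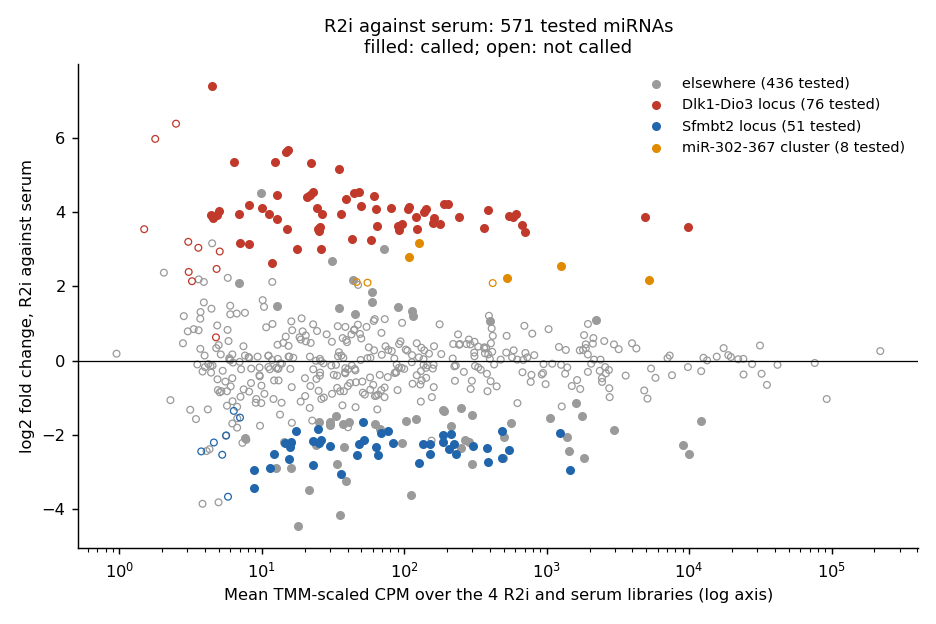
Log2 fold change of R2i over serum (y axis) against the mean CPM over the 4 libraries (x axis, log scale) for the 571 tested miRNAs. Filled points were called and open points were not; colours mark Dlk1-Dio3 (76), Sfmbt2 (51), miR-302/miR-367 (8) and other miRNAs (436). The Dlk1-Dio3 points lie above 0 and the Sfmbt2 points below 0. Of the 20 miRNAs above 10000 CPM at the right, 0 were called higher and 2 lower (miR-22-3p and miR-21a-5p). miR-92a-3p, which was not called, lies at -1.03.

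The Dlk1-Dio3 locus held most of the higher miRNAs. The 76 tested miRNAs counted here lie on the plus strand of chromosome 12, between the start of Dlk1 at 109452823 and the end of Dio3 at 110281097 (GRCm38). Of 111 listed mature miRNAs of the locus, 76 were tested, 66 of these were higher in R2i and 0 were lower, and DESeq2 called 67 higher and 0 lower. Among all miRNAs tested, edgeR called 15.1% higher and 15.6% lower. Of the 76, 20 had 3 counts or fewer in both serum libraries and passed the filter through the media in which they were high. With at least 10 counts required in every library, 28 miRNAs of the locus were called higher and 0 lower. The median log2 change was 3.90, or 3.87 when the 3 members without any count in serum were set to their lower bound, and the middle part of the members lay between 3.55 and 4.19. Together the locus held 0.202% and 0.376% of the counts in serum and 4.71% and 3.79% in R2i. The lowest share in R2i was thus about an order of magnitude above the highest share in serum. With the cell line as a block, which pairs R2i and serum of the same line, 62 of the 76 were called. In bulk libraries a larger share of cells that express the locus and more RNA in each cell cannot be told apart.

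miR-127-3p, which lies antisense to Rtl1 at chr12:109592846-109592915 and targets the Rtl1 mRNA, was the most abundant of them. It was at 870.8 and 2101 CPM in serum and at 18720 and 17470 CPM in R2i, which is 1486 ± 870 against 18090 ± 880 (mean ± SD, n = 2). The R2i libraries were close to each other, and both lay far above both serum libraries. The log2 change was 3.61 (SE 0.42, edgeR adjusted p = 0.00035), or 12.2-fold. miR-541-5p, from an intron of Mirg at chr12:109742409-109742498, stood at 452 and 809 CPM in serum and at 8908 and 9366 CPM in R2i, a log2 change of 3.86 (SE 0.33, edgeR adjusted p = 0.000164). Serum RB20 was again the higher of the serum libraries, and both stayed far below R2i.

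5 members had means between 1018 and 1291 CPM in R2i, 3 of them from the distal block near Mirg and, antisense to Rtl1, miR-136-3p (1138 CPM) and miR-434-5p (1079 CPM). miR-381-3p (chr12:109726822-109726896) was at 60.8 and 172 CPM in serum and at 1473 and 1108 CPM in R2i, with a log2 change of 3.47 (SE 0.48, edgeR adjusted p = 0.000762). miR-410-3p was at 56.9 and 139 CPM in serum and at 1396 and 1096 CPM in R2i (log2 change 3.66). miR-409-3p was at 38.9 and 97.6 CPM in serum and at 1037 and 998 CPM in R2i (log2 change 3.89). In all 3, serum RB20 was above serum RB18, and both lay well below the R2i libraries. miR-379-3p and miR-411-3p, which share a seed, rose from 3.83 and 11.9 and from 2.74 and 3.47 CPM in serum to 84.9 and 72.1 and to 54.0 and 44.9 CPM in R2i.

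Among members with a mean of at least 50 CPM in R2i, the largest changes were those of miRNAs nearly absent in serum. miR-431-3p, which like miR-127-3p lies antisense to Rtl1, had 4 and 3 counts in serum and 95 and 188 in R2i, with a log2 change of 5.15 (SE 0.42, edgeR adjusted p = 0.000164). miR-666-5p was at 3.83 and 3.96 CPM in serum and at 91.7 and 93.2 CPM in R2i. Its log2 change was 4.55 (SE 0.29), and its adjusted p of 0.000162 in edgeR's test was, with miR-495-3p and miR-543-3p, the smallest of all miRNAs. Further members that rose included miR-376a-3p (log2 change 4.51), miR-323-3p (4.42), miR-382-5p (4.36) and miR-380-3p (4.23). miR-539-5p, with no count in serum and 10 and 33 counts in R2i, was at least 5.75-fold higher, and it was not called without R2i RB20 (adjusted p = 0.0112). miR-541-3p and miR-412-3p, at least 3.20-fold and 2.28-fold higher, were not called.

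Called miRNAs came from each of the 3 groups of the locus. Of 14 tested miRNAs near Meg3 and Rian, 9 were called, with a median log2 change of 3.66. The miRNAs antisense to Rtl1 gave 9 of 10 with a median of 3.90, and the distal block from miR-379 to miR-410 gave 48 of 52 with a median of 3.94. Most RNA came from the Rtl1 antisense group, at 2.54% and 2.02% of the counts in R2i, and from the distal block at 2.00% and 1.64%, while the miRNAs near Meg3 and Rian gave 0.159% and 0.130%. The 10 members that were not called did not exceed a mean of 9.15 CPM in R2i. The smallest change among them was that of miR-654-3p, at 0 and 7.93 CPM in serum and 2.57 and 8.58 CPM in R2i (log2 change 0.63, adjusted p = 0.746). miR-1247, which lies on the minus strand beside Dio3 and is not among the 76, was not called on either strand: miR-1247-5p was at 33.4 and 14.9 CPM in serum and at 27.4 and 60.9 CPM in R2i (log2 change 0.93, adjusted p = 0.150), and miR-1247-3p had a log2 change of 2.12 (adjusted p = 0.0331).

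**Figure D2:**
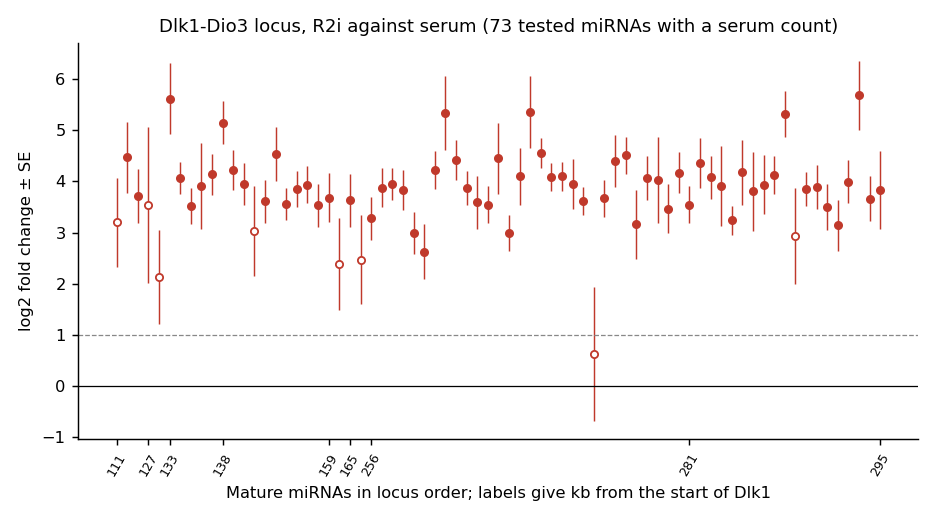
Log2 fold change of R2i over serum with its SE (y axis) for the 73 tested Dlk1-Dio3 miRNAs that had a count in serum, in the order of their position along the locus (x axis, labelled by the distance in kb from the start of Dlk1). Filled points were called and open points were not, and the dashed line marks a change of 2-fold; most points lie between 3 and 5 from 111 to 295 kb.

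Within serum, the 2 lines stood apart. Of the 76 members, 60 had a higher CPM in serum RB20 than in serum RB18, and the share of all counts in serum was 0.376% in RB20 against 0.202% in RB18. The change within RB18, with a median of 4.17, was larger than that within RB20, with a median of 3.20, and 64 of the 76 members changed more in RB18. Among all miRNAs tested, the medians were -0.06 within RB18 and -0.05 within RB20. How many of all tested miRNAs were higher in serum RB20, or changed more in RB18, was not counted. With 1 library for each line and medium, this difference between the lines could not be tested. In 2i, the locus held 4.14% and 3.67% of the counts, and 66 of its miRNAs were called higher against the same serum libraries. Tested directly, the median difference of R2i minus 2i was -0.16, and none of the 76 was called.

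**Figure D3:**
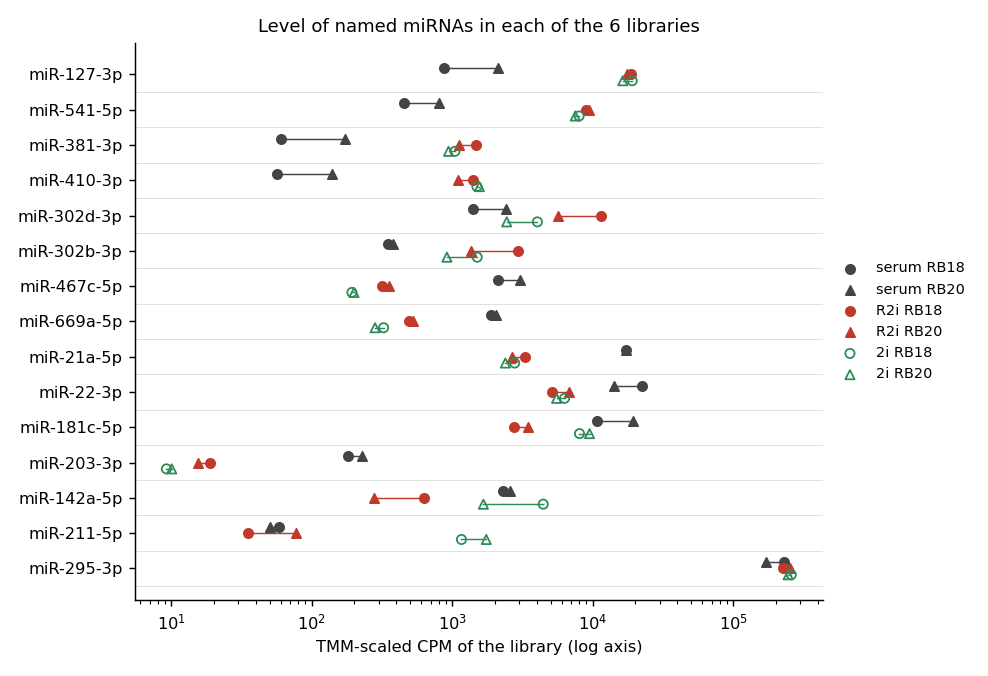
CPM (x axis, log scale) of 15 miRNAs (y axis) in each library. Serum is in grey, R2i in red and 2i in open green symbols, with circles for RB18 and triangles for RB20. The Dlk1-Dio3 and miR-302/miR-367 miRNAs lie further to the right in R2i than in serum. miR-21a-5p, miR-467c-5p and miR-203-3p lie further to the left, while miR-295-3p holds the highest level throughout.

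The miR-302/miR-367 cluster lies at chr3:127545228-127545807, and 5 of its 8 tested miRNAs were higher in R2i and none was lower. These were the 3p strands of miR-302a, b, c and d and of miR-367. The median log2 change of the 8 was 2.20, and for each of them both R2i libraries lay above both serum libraries. Among all 571 miRNAs tested, 15.1% were called higher, and in 70.6% the R2i and serum libraries did not overlap. miR-302d-3p, the most abundant, was at 1394 and 2412 CPM in serum and at 11500 and 5612 CPM in R2i (log2 change 2.17, SE 0.45, edgeR adjusted p = 0.00536). miR-302b-3p was at 348.1 and 379.1 CPM in serum and at 2942 and 1350 CPM in R2i (log2 change 2.56, SE 0.42, edgeR adjusted p = 0.00171). RB18 in R2i stood above RB20 in R2i in each case. miR-302c-3p (log2 change 3.17), miR-367-3p (2.79) and miR-302a-3p (2.23) behaved alike.

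The 2 R2i libraries differed for this cluster, which held 1.96% of the counts in RB18 and 0.798% in RB20, against 0.219% and 0.298% in serum. The median change was 3.13 within RB18 and 1.32 within RB20. With the cell line as a block 4 of the 8 were called, as miR-302d-3p was lost (adjusted p = 0.0172). Without R2i RB18 only 3 were called. DESeq2 called all 8. In edgeR, without serum RB18 or without serum RB20 none of the 8 passed the adjusted p, although miR-302b-3p still differed by 2.62 and 2.59 on the log2 scale. In 2i the cluster held 0.658% and 0.392% of the counts, with a median log2 change of 1.00 over serum. R2i minus 2i had a median of 1.23, and 7 of the 8 had an unadjusted p under 0.05, but none was called between R2i and 2i.

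The increase of miR-302 was small beside the miRNAs that share its seed. Sums by seed hold only miRNAs with a RefSeq sequence, and miR-302a-3p, which had none, is in no sum. The seed AAGUGCU of miR-302b-3p and miR-302d-3p is also that of miR-295-3p, miR-294-3p and miR-291a-3p of the miR-290-295 cluster. Summed over these 5 miRNAs, it stood at 272300 and 212200 CPM in serum and at 274200 and 295400 CPM in R2i, a ratio of 1.18. Likewise miR-367-3p shares the seed AUUGCAC with miR-92a-3p and 4 others, whose sum was 99070 and 181500 CPM in serum and 77780 and 73310 CPM in R2i, a ratio of 0.538. Most of that sum was miR-92a-3p, at 85610 and 162300 CPM in serum and 63060 and 58660 CPM in R2i, which was not called (log2 change -1.03, SE 0.31, edgeR adjusted p = 0.0309). Without serum RB18 it did pass, with a log2 change of -1.30 (adjusted p = 0.00228).

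Only 20 called higher miRNAs lay outside Dlk1-Dio3, 5 of them in miR-302/miR-367. Over all miRNAs tested, 15.1% were higher. In the miR-130/miR-301 family, which shares its seed among its 3p strands, 3 of 8 members rose, with miR-301a-3p at 1154 and 1648 CPM in serum and at 2903 and 3104 CPM in R2i (2.14-fold, SE 0.25 on the log2 scale, edgeR adjusted p = 0.00924). Without R2i RB20 none of the 3 was called (adjusted p = 0.0535 for miR-301a-3p, 0.0174 for miR-301a-5p and 0.0311 for miR-301b-5p), and miR-301b-5p was lost without any 1 of the 6 libraries. miR-15a-5p, a brake on the cell cycle, was at 294 and 222 CPM in serum and at 505 and 587 CPM in R2i (log2 change 1.08, edgeR adjusted p = 0.00945). miR-147-3p was at 50.9 and 47.1 CPM in serum and at 119.2 and 145.3 CPM in R2i (log2 change 1.44). From a cluster near Fmr1 on the X chromosome, miR-470-5p, miR-743b-3p and miR-871-3p rose among 12 tested, with log2 changes of 1.59, 1.47 and 1.34. These calls lay near the threshold. When the lines were blocked, the 3 X-linked calls, miR-15a-5p (adjusted p = 0.0201) and miR-187-3p (0.0140, against a log2 change of 1.25) were lost, and 14 of the 20 remained; without R2i RB18, 10 were called outside the 2 loci, and without R2i RB20, serum RB18 or serum RB20 they were 14, 10 and 11. The 3 X-linked calls were all lost without R2i RB18, serum RB18 or serum RB20. That of miR-871-3p was also lost without 2i RB20. That of miR-743b-3p was lost without any 1 of the 6 libraries, at log2 changes from 1.46 to 1.54, and with DESeq2 (DESeq2 adjusted p = 0.0115). miR-15a-5p was lost without R2i RB18 (adjusted p = 0.0323), R2i RB20 (0.0640), serum RB20 (0.0281), 2i RB18 (0.0159) or 2i RB20 (0.0216), and miR-147-3p without R2i RB20 (0.0160). miR-301a-3p was not called without R2i RB18 (adjusted p = 0.0225), serum RB18 (0.0126) or 2i RB20 (0.0260). Of the miRNAs picked out after their values were seen, miR-874-3p rose from 8.76 and 7.93 CPM in serum to 64.3 and 44.3 CPM in R2i (log2 change 2.68, edgeR adjusted p = 0.000736), and miR-153-3p, a neural miRNA, rose from 19.7 and 12.4 to 60.02 and 81.77 CPM (log2 change 2.16, edgeR adjusted p = 0.000946).

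Sfmbt2 held the largest group of lower miRNAs. The gene spans chr2:10370510-10595253 (GRCm38), and 43 of the 51 miRNAs tested there had lower levels in R2i, with 0 called higher and none even at an unadjusted p under 0.05. The median log2 change was -2.25, with members between -3.66 and -1.35, and for all 51 both R2i libraries lay below both serum libraries. Among all 571 miRNAs tested, 15.6% were called lower, and in 70.6% the R2i and serum libraries did not overlap. The median was -2.29 within RB18 and -2.19 within RB20. Together these miRNAs fell from 1.32% and 1.28% of the counts in serum to 0.287% and 0.265% in R2i. The 8 members that were not called had a serum mean of at most 26.6 CPM. With the line as a block 41 were called, and without R2i RB20 only 28 were called.

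The most abundant of them was miR-467c-5p (chr2:10473931-10474027), at 2103 and 3034 CPM in serum and at 316 and 354 CPM in R2i, with a log2 change of -2.94 (SE 0.28, edgeR adjusted p = 0.000171). miR-669a-5p, which is encoded by 12 genes, was at 1874 and 2049 CPM in serum and at 491 and 527 CPM in R2i (log2 change -1.95, SE 0.23, edgeR adjusted p = 0.000372). miR-669c-5p was at 718 and 1114 CPM in serum and at 176 and 172 CPM in R2i (log2 change -2.40). In each of the 3, the libraries of a medium lay closer to each other than to those of the other medium. By family, 8 of 9 miR-467 members were lower with a median log2 change of -2.38, 17 of 19 miR-669 members with a median of -2.29, and 18 of 23 miR-466 and miR-297 members with a median of -2.23. Of the 51, 15 come from more than 1 gene, and because the hairpins are close copies of each other the split of reads among them is uncertain. In 2i these miRNAs held 0.158% and 0.146% of the counts, and 49 of the 51 had a higher mean in R2i than in 2i. The median of R2i minus 2i was 0.81 on the log2 scale, 25 of the 51 had an unadjusted p under 0.05, and none was called.

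**Figure D4:**
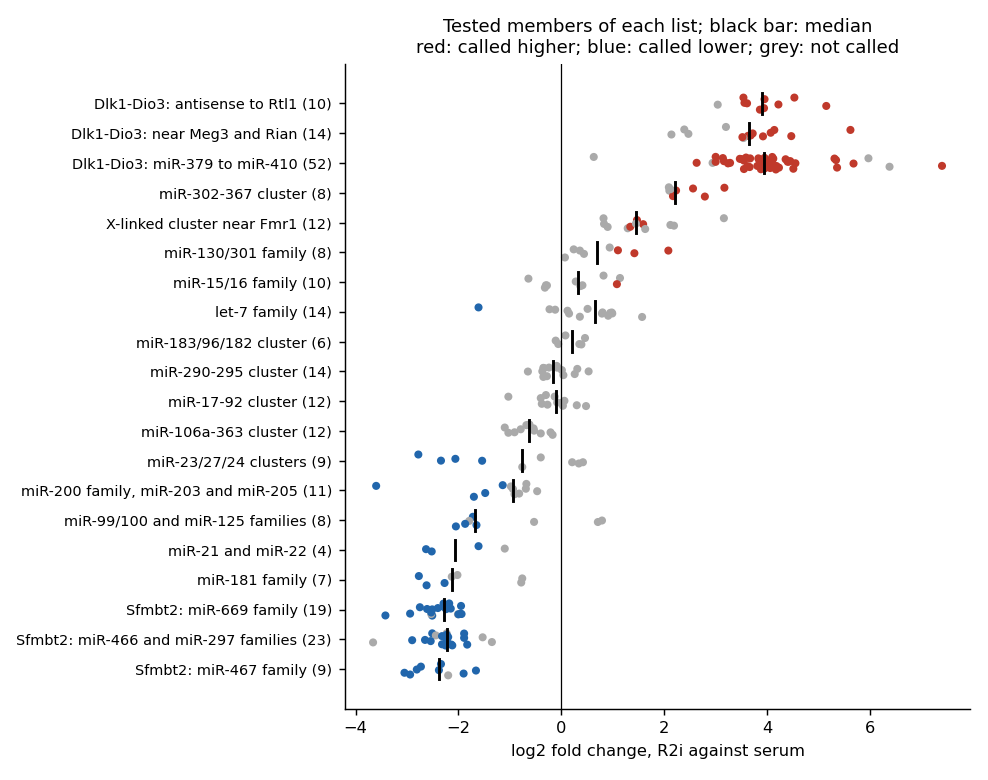
Log2 fold change of R2i over serum (x axis) of the tested members of 20 miRNA groups (1 group a line, 1 point a miRNA, the bar at the median). The groups of Dlk1-Dio3 lie to the right of 0 with medians from 3.66 to 3.94, and miR-302/miR-367 with a median of 2.20. Those of Sfmbt2 lie to the left with medians from -2.38 to -2.23. The miR-290-295 and miR-17-92 groups lie about 0, and all 12 members of miR-106a-363 lie to the left (median -0.62).

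Outside Sfmbt2, 46 miRNAs were lower in R2i, and they included the 2 most abundant called miRNAs, miR-22-3p and miR-21a-5p. Of these 46, 4 carry miR-466 names. They were left out of the Sfmbt2 group because a miRNA was counted there only if all its genes were placed inside the locus. miR-21a-5p, a broadly expressed miRNA that is known to promote growth in tumours and lies beside Vmp1 at chr11:86584067-86584158, was at 17070 and 17080 CPM in serum and at 3294 and 2663 CPM in R2i (log2 change -2.52, SE 0.24, edgeR adjusted p = 0.000171). Its passenger strand miR-21a-3p fell too, with a log2 change of -2.63. miR-22-3p was at 22370 and 14110 CPM in serum and at 5151 and 6788 CPM in R2i (log2 change -1.61, SE 0.29, edgeR adjusted p = 0.00287). All serum libraries lay above all R2i libraries for both miRNAs. The call of miR-22-3p was lost without R2i RB18 (adjusted p = 0.0313), with a log2 change of -1.44.

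The miR-181c/d cluster lies in an intron of Nanos3 at chr8:84178716-84178961, and all 3 of its tested miRNAs were lower. miR-181c-5p was at 10700 and 19200 CPM in serum and at 2727 and 3449 CPM in R2i (log2 change -2.27, SE 0.33, edgeR adjusted p = 0.000899), and miR-181d-5p was at 2117 and 4223 CPM in serum and at 436 and 592 CPM in R2i (log2 change -2.62). miR-181a-5p and miR-181b-5p, which carry the same seed but come from other genes, had log2 changes of -0.76 and -0.78 and were not called (adjusted p = 0.126 and 0.217). Summed over the seed ACAUUCA, the level was 13200 and 23930 CPM in serum and 3414 and 4309 CPM in R2i, a ratio of 0.208. In 2i miR-181c-5p was at 8030 and 9465 CPM, between serum and R2i. R2i minus 2i was -1.50 on the log2 scale (SE 0.32, unadjusted p = 0.00175), which missed the threshold after adjustment (edgeR adjusted p = 0.0714).

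On the same chromosome, at chr8:84208518-84208921, all 4 tested miRNAs of the miR-23a/miR-27a/miR-24-2 cluster were lower. miR-27a-3p was at 1614 and 1541 CPM in serum and at 478 and 608 CPM in R2i (log2 change -1.54, SE 0.29, edgeR adjusted p = 0.00323), and miR-23a-3p was at 1052 and 578 CPM in serum and at 189 and 202 CPM in R2i (log2 change -2.06). The other two were miR-27a-5p (log2 change -2.78) and miR-24-2-5p (-2.34). miR-27b-3p, from the paralogous cluster and with the seed of miR-27a-3p, was at 12760 and 18120 CPM in serum and at 15150 and 23810 CPM in R2i, with overlapping libraries (log2 change 0.34, edgeR adjusted p = 0.405). miR-24-3p, which both clusters encode, had a log2 change of -0.76 (edgeR adjusted p = 0.0385). Calls in this cluster were lost without R2i RB18 for miR-23a-3p, miR-24-2-5p and miR-27a-3p (adjusted p = 0.0161, 0.0219 and 0.0289), without R2i RB20 for miR-23a-3p, miR-27a-3p and miR-27a-5p (0.0123, 0.0153 and 0.0164) and without serum RB18 for miR-27a-3p (0.0141).

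The miR-99b/let-7e/miR-125a cluster in Spaca6 (chr17:17830188-17830879) was lower in all 5 of its tested miRNAs. miR-99b-5p was at 5739 and 3584 CPM in serum and at 965 and 1576 CPM in R2i (log2 change -1.87, SE 0.34, edgeR adjusted p = 0.00287), and miR-125a-5p was at 2981 and 1499 CPM in serum and at 360 and 722 CPM in R2i (log2 change -2.05, SE 0.44, edgeR adjusted p = 0.00624). RB18 was the higher line in serum and the lower line in R2i for both, so that the change of miR-125a-5p was -3.05 within RB18 and -1.05 within RB20. With the line as a block, miR-99b-5p (adjusted p = 0.0102) and miR-125a-5p (0.0201) were not called. Without R2i RB18, neither of them was called (0.0246 and 0.0418), nor without serum RB18 (0.0129 and 0.0332). The call of miR-125a-3p was lost without R2i RB18, serum RB18 or serum RB20. miR-99b-3p kept its call without R2i RB18 but lost it without R2i RB20 (log2 change -1.52) or serum RB20 (-1.40). let-7e-5p of this cluster was the only 1 of 14 tested let-7 miRNAs that was called (log2 change -1.61), and it too was lost without R2i RB18 (log2 change -1.48). let-7 miRNAs promote differentiation, and the median log2 change of the 14 was 0.65. let-7g-5p went the other way, at 122.6 and 116 CPM in serum and 240.1 and 230.2 CPM in R2i, without overlap; its log2 change of 0.98 (SE 0.22, edgeR adjusted p = 0.00875) passed the adjusted p but, at 1.97-fold, fell short of the 2-fold limit, and DESeq2 called it (log2 change 1.06).

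Of 11 tested epithelial miRNAs (the miR-200 family, miR-203 and miR-205), 4 were lower in R2i and 0 were higher, beside 15.6% lower over all miRNAs tested. The other 7 were not called, among them miR-205-5p (log2 change -0.98, edgeR adjusted p = 0.0778) and miR-141-3p (-0.47, adjusted p = 0.340). Without R2i RB18, 3 of the 4 calls were lost. The largest change was that of miR-203-3p, which restrains the growth of skin epithelium and lies on chromosome 12 outside Dlk1-Dio3. It was at 181.7 and 228.9 CPM in serum and at 18.9 and 15.4 CPM in R2i (log2 change -3.60, SE 0.27, edgeR adjusted p = 0.000164). miR-200b-3p, which represses the drivers of epithelial-to-mesenchymal transition, was at 2536 and 2696 CPM in serum and at 786 and 1089 CPM in R2i (log2 change -1.48, SE 0.25, edgeR adjusted p = 0.00188). It was not called without R2i RB18 (adjusted p = 0.0173). From the same cluster on chromosome 4, miR-200a-3p (log2 change -1.14) and miR-200a-5p (-1.70) also fell. Their calls rested on single libraries: without R2i RB18 the adjusted p was 0.0549 and 0.0415, without R2i RB20 0.0415 and 0.0362, without serum RB20 0.0176 and 0.0217, and without 2i RB20 0.0255 and 0.0129, while without 2i RB18 that of miR-200a-3p was 0.0115 and with the block that of miR-200a-5p was 0.0104.

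Related miRNAs from different genes went apart in the Hox clusters too. miR-10a-5p was at 397.4 and 541.1 CPM in serum and at 100.8 ± 45.5 CPM in R2i (mean ± SD, n = 2), where RB20 was the higher line, and the media did not overlap (log2 change -2.20, SE 0.41, edgeR adjusted p = 0.00324), and this call was lost without R2i RB18 (adjusted p = 0.0174) or serum RB20 (0.0135). miR-10b-5p, with the same seed, was at 675.4 and 795.3 CPM in serum and at 981 and 1672 CPM in R2i (log2 change 0.85, edgeR adjusted p = 0.0925). The difference between the 2 miRNAs was not tested. At the imprinted Igf2 gene, miR-483-3p fell from 48.2 and 30.2 CPM in serum to 3.43 and 3.43 CPM in R2i (log2 change -3.49, SE 0.41, edgeR adjusted p = 0.00035). From an intron of Dbn1 on chromosome 13, miR-6944-3p fell from 73.9 and 65.4 CPM in serum to 12.9 and 4.29 CPM in R2i (log2 change -3.24).

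Of miRNAs picked out after their values were seen, miR-674-3p fell from 165.8 and 153.6 CPM in serum to 34.30 and 34.03 CPM in R2i (log2 change -2.22, edgeR adjusted p = 0.000208), miR-146a-5p, a feedback inhibitor of innate immune signalling, from 452.1 and 424.2 to 84.03 and 112.9 CPM (log2 change -2.14, edgeR adjusted p = 0.00055) and miR-31-5p from 324 and 336 to 80.6 and 112 CPM (log2 change -1.76, edgeR adjusted p = 0.00103). In each of them the 2 serum libraries were near each other and above both R2i libraries. On the X chromosome, all 3 tested miRNAs of the miR-421/miR-374b cluster (chrX:103572921-103573154) and 4 of 10 of the cluster from miR-532 to miR-500 (chrX:7237683-7248497) were lower. Without R2i RB20, all 3 calls of the first cluster and 3 of the 4 of the second were lost. Of the 62 tested miRNAs of the X chromosome, 3 were higher and 7 lower, beside 15.1% higher and 15.6% lower over all miRNAs tested.

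The abundant clusters of ESCs were not called. None of 14 miR-290-295 miRNAs, 12 miR-17-92, 12 miR-106a-363, 6 miR-106b-25 and 6 miR-183/miR-96/miR-182 miRNAs passed in either direction, with median log2 changes of -0.16, -0.11, -0.62, 0.07 and 0.22. DESeq2 called none of them either, and at an unadjusted p under 0.05 there were 5 that were lower (miR-292a-5p, miR-18b-3p, miR-20b-3p, miR-92a-2-5p and miR-92a-3p, the last of which both miR-17-92 and miR-106a-363 encode) and 0 that were higher. miR-295-3p, the most abundant miRNA of all, was at 228000 and 171000 CPM in serum and at 224600 and 254700 CPM in R2i (log2 change 0.26, SE 0.23, edgeR adjusted p = 0.403). miR-294-3p was at 28250 and 26020 CPM in serum and at 21290 and 20830 CPM in R2i (log2 change -0.37, edgeR adjusted p = 0.196). miR-182-5p, of the miR-183/miR-96/miR-182 cluster, was at 58920 and 96560 CPM in serum and at 65770 and 83530 CPM in R2i (log2 change -0.06, SE 0.30, edgeR adjusted p = 0.892). For miR-295-3p and miR-182-5p the libraries of the 2 media overlapped. The miR-17-92 cluster held 10.1% and 15.9% of the counts in serum and 8.35% and 6.77% in R2i, and most of this was miR-92a-3p, which the miR-106a-363 cluster also encodes.

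Markers of other cell types were examined by list, beside 15.1% higher and 15.6% lower over all miRNAs tested. Of 17 listed muscle miRNAs, 11 had a count, 4 were tested, 1 was higher and 3 were lower, and their sum was 0.0198% and 0.00994% of the counts in serum and 0.0110% and 0.0183% in R2i; miR-133a-5p, miR-1a-2-5p, miR-206-5p, miR-208a-5p and miR-208b-5p were at 0 in all 4 libraries. miR-208b-3p, from an intron of the myosin gene Myh7, fell from 165 and 86 counts in serum to 5 and 12 in R2i (log2 change -4.14, SE 0.74, edgeR adjusted p = 0.00256). The heart and skeletal muscle miRNAs miR-133a-3p, with 93 and 36 counts in serum and 2 and 5 in R2i (log2 change -4.45), and miR-1a-3p, with 52 and 55 against 7 and 9 (log2 change -2.89), fell with it. miR-499-5p, from the myosin gene Myh7b, went the other way, from 29 and 33 counts in serum to 95 and 612 in R2i (log2 change 3.01, SE 0.40, edgeR adjusted p = 0.000601). Without R2i RB20, miR-208b-3p (adjusted p = 0.0304), miR-133a-3p (0.0164) and miR-1a-3p (0.0268) were not called, and without R2i RB18 or serum RB18 miR-208b-3p was lost as well (0.0132 and 0.0229), as was miR-1a-3p without serum RB18 or serum RB20 (0.0265 and 0.0187).

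Of 13 listed miRNAs of blood and endothelium, 11 had a count and 8 were tested. Of these 8, 1 was higher and 2 were lower, beside 15.1% higher and 15.6% lower over all miRNAs tested. The listed miRNAs summed to 0.423% and 0.414% of the counts in serum and 0.261% and 0.155% in R2i. Whether cells of these types in the cultures have a part in any result was not tested. miR-142a-5p, a miRNA of blood cells, was at 2277 and 2581 CPM in serum, 629 and 277 CPM in R2i and 4434 and 1663 CPM in 2i. The serum and 2i libraries thus overlapped, and both R2i libraries lay below them. It fell by 2.43 on the log2 scale against serum (SE 0.54, edgeR adjusted p = 0.00753), and this was lost without R2i RB20 (adjusted p = 0.0473), serum RB18 (0.0340) or serum RB20 (0.0314). Against 2i the difference was -2.76 (edgeR adjusted p = 0.0714). miR-155-5p, which is induced in activated immune cells, was at 183.4 and 181.9 CPM in serum and at 58.3 and 63.8 CPM in R2i (log2 change -1.58, SE 0.23, edgeR adjusted p = 0.000899). miR-451a, a miRNA of red blood cells, had 0 and 3 counts in serum and 22 and 66 in R2i, a ratio of 24.2 with a counting interval of 8 to 119. None of the tested mesenchyme and fibroblast (7), neural (13) and endoderm and liver (3) miRNAs of the marker lists was called by edgeR. The last 3 were miR-192-5p, miR-194-5p and miR-375-3p. Both strands of miR-122, the liver marker, did not pass the filter and were not tested. At an unadjusted p under 0.05 in edgeR's test, 1 fibroblast miRNA was higher, 1 neural one higher and 1 lower. DESeq2 called 1 fibroblast and 1 neural miRNA higher.

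The strands of a hairpin were compared next. Of 178 hairpins with both strands tested, 30 had strands whose changes differed in sign and in 102 neither strand was called, while 48 had both strands called in the same direction, 22 higher and 26 lower, and 0 had strands called in opposite directions. In a further 28 only 1 strand was called, and in each of these the other strand changed with the same sign. Of 98 clusters with at least 2 tested miRNAs on the same strand and within 10000 bases of each other, 18 had at least 2 called members, and in none were members called in both directions. Strands of a hairpin and members of a cluster share their transcript and are not independent observations.

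**Figure D5:**
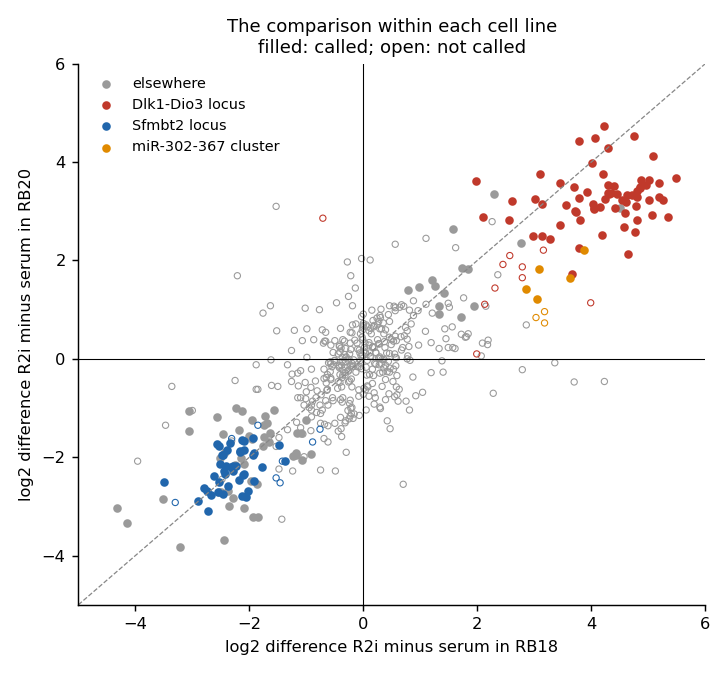
Log2 difference of R2i minus serum within RB18 (x axis) and within RB20 (y axis), 1 point for each tested miRNA, with the dashed line at equal differences. Every called miRNA moved the same way in both lines, but the calls were made on these same libraries. The points of Dlk1-Dio3 and miR-302/miR-367 lie mostly below the line, with a larger difference in RB18 (medians 4.17 and 3.13) than in RB20 (3.20 and 1.32).

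R2i was then set directly against 2i, to ask which of the levels in R2i differed from those under the other pair of inhibitors. The comparisons of R2i and of 2i with serum share the serum libraries, so that only the direct test bears on this. edgeR's quasi-likelihood test called 0 miRNAs higher in R2i and 2 lower, or 0.35% of those tested, although 61 and 43 had an unadjusted p under 0.05. DESeq2 called 8 higher and 8 lower. The 2 called were both strands of miR-211, a miRNA of pigment cells from an intron of Trpm1 (chr7:64205806-64205911). miR-211-5p was at 58.6 and 50.5 CPM in serum, 35.2 and 76.6 CPM in R2i and 1161 and 1743 CPM in 2i. R2i and serum thus overlapped and 2i lay above both. R2i minus 2i was -4.66 on the log2 scale (SE 0.44, edgeR adjusted p = 0.00213), against 0.07 for R2i over serum (adjusted p = 0.901). miR-211-3p gave -5.10 (SE 0.47, edgeR adjusted p = 0.00213). Without serum RB18, neither was called between R2i and 2i; without R2i RB20 or 2i RB20 1 was called, and with the line as a block 0.

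Several miRNAs called between R2i and serum were not called between 2i and serum, and none of the 24 of this kind was called between R2i and 2i. The smallest p belonged to miR-152-5p, at 26.3 and 51.0 CPM in serum, 11.2 and 12.9 CPM in R2i and 62.2 and 80.9 CPM in 2i. R2i was the lowest medium for it, by -1.66 on the log2 scale against serum and by -2.55 against 2i (edgeR adjusted p = 0.00863 and 0.0312). Its call against serum was lost without R2i RB18 (adjusted p = 0.0328), R2i RB20 (0.0516), serum RB20 (0.0307) or 2i RB20 (0.0121). For miR-146a-5p and miR-874-3p, R2i minus 2i was -1.31 and 1.62 on the log2 scale, with an edgeR adjusted p of 0.0714 each.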

How the data were processed

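Small RNA libraries of RB18 and RB20 ESCs in R2i, 2i and serum were compared, 1 library for each line and medium and 3 cultures a pool. Per the submitters' processing notes, the authors used FastQC 0.11.5, cutadapt 1.3, Bowtie 1.1.2 and featureCounts 1.5; the deposited values are raw counts per mature miRNA and, in a second table, log2 values of counts divided by size factors plus 1 (within 0.005 of values recomputed here). The counts were tested in R 4.3.3 with edgeR 4.0.16 (TMM scaling, filterByExpr set to 10 counts and a total of 15, quasi-likelihood test on all 6 libraries with 1 coefficient for each medium, common biological coefficient of variation 24.6%), calling an adjusted p under 0.01 with a change over 2-fold. The script was tested on simulated data with known changes. Alternatives were DESeq2 1.42.0, limma 3.58.1 on the deposited log2 values, other scalings, filters and thresholds, thinning to 1041858 counts, only the 4 libraries compared, each library left out, and the cell line as a block. The lines pair the libraries because the same line was grown in each medium; deviations from the medium means correlated at -0.128 between serum and R2i, 0.243 between R2i and 2i and 0.211 between serum and 2i. Positions are from GENCODE M21 and RefSeq (GRCm38.p6), which placed 1905 of the 1907 miRNAs; 463 of the 571 tested had a RefSeq sequence. Named miRNAs were the 10 largest changes in each direction with at least 50 CPM in the higher medium, the 5 most abundant calls in each direction, the 10 most abundant miRNAs, those the study named, the leading members of each list, the calls against 2i, and up to 5 of the largest changes from 3 counts or fewer. Members and lists were chosen with earlier results of these data known. Depth ranged from 1041858 to 3593356 counts a library.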

Additional observations from a re-analysis of the deposited data

Results flagged for a closer look

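miR-211-3p and miR-211-5p differed between the effects of the 2 inhibitor media by a direct test, with R2i minus 2i at -5.10 and -4.66 on the log2 scale (edgeR adjusted p = 0.00213 for each).

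Of the 101 named miRNAs, 9 had a difference of R2i minus serum with opposite sign in the 2 lines; none of them was called, and with 1 library for each line and medium the difference between lines was not tested. The values in RB18 and RB20, on the log2 scale, were -0.72 and 0.59 for miR-211-5p, 0.16 and -0.21 for miR-182-5p, -0.02 and 0.58 for miR-295-3p, -0.99 and 0.03 for miR-124-3p and -0.77 and 1.00 for miR-351-5p. They were 0.32 and -0.10 for miR-30e-5p, 0.53 and -0.21 for miR-148a-3p, -0.39 and 0.22 for miR-484 and -0.36 and 0.39 for miR-26a-5p.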

How the results depend on the processing

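The counts of 86 higher and 89 lower miRNAs depended most on the filter and on single libraries. Requiring 10 counts in every library left 56 higher, of which 46 were among the 86, because miRNAs near 0 in serum were no longer tested, and 71 lower. Leaving out each of the 6 libraries in turn gave 69 to 87 higher and 53 to 91 lower; the lower count was 59 without R2i RB18 and 53 without R2i RB20, where the lone library of R2i is assumed to vary like the others. The other alternatives gave 76 to 112 higher and 79 to 116 lower, and the replicate block by cell line, which pairs the media, gave 76 and 79, with 10 calls lost in each direction and none gained; beyond the lost calls given above and that of miR-668-3p (adjusted p = 0.0121) it changed no other call of a named miRNA. Between R2i and 2i, the 0 higher became 8 with DESeq2 and 11 without a filter on low counts. The 2 lower became 8 with DESeq2, 14 without a filter, 1 with 10 counts in every library, 0 with only the 4 libraries compared, 0 with the replicate block, 5 with the replicate block and library totals together, and 0 to 3 when each library was left out; the cause was not tested. Of the 101 named miRNAs, 13 changed sign under at least 1 of 18 alternatives, none of them called and none beyond 0.55 on the log2 scale. With 2 libraries a medium, pools of cultures and as few as 1041858 counts, small changes and miRNAs of a few counts could not be resolved.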

Other observations

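Imprinted loci other than Dlk1-Dio3 and Sfmbt2 had 9 tested miRNAs, with a median log2 change of -0.54. Of these, 1 was lower in R2i (miR-483-3p in Igf2) and 0 were higher, beside 15.6% lower and 15.1% higher over all miRNAs tested. miR-675-3p, cut from the H19 RNA, was at 8.76 and 5.45 CPM in serum and at 0.857 and 0.286 CPM in R2i, with a log2 change of -3.85 that did not pass the threshold (edgeR adjusted p = 0.0145). miR-335-3p, from an intron of Mest, was at 1990 and 1586 CPM in serum and at 929 and 600.2 CPM in R2i (log2 change -1.23, edgeR adjusted p = 0.0448). miR-298-5p, from the Gnas region, was at 3212 and 3464 CPM in serum and at 3917 and 5298 CPM in R2i (log2 change 0.47, edgeR adjusted p = 0.164).

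Of 8 tested miRNAs of the miR-34 and miR-449 families, which p53 induces, edgeR called none and DESeq2 called 1 lower; miR-34c-5p was at 733.4 and 979.7 CPM in serum and at 476.7 and 303.4 CPM in R2i (log2 change -1.14, SE 0.33, edgeR adjusted p = 0.0256). Of 9 tested miRNAs of the X-linked miR-322/miR-503 cluster and 11 of the miR-30 family, edgeR and DESeq2 called none. miR-184-3p was at 18.6 and 18.8 CPM in serum and at 59.2 and 93.2 CPM in R2i, with a log2 change of 2.04 that missed the threshold (SE 0.53, edgeR adjusted p = 0.0162).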
